A study of Mus musculus with 24 samples.

Results

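The genes examined here encode the subunits of the proteasome. They were taken as every gene of the deposited expression tables whose symbol is Psma, Psmb, Psmc or Psmd followed by a number. The 3 immunoproteasome genes Psmb8, Psmb9 and Psmb10 were left out of this set and are described apart, which leaves 36 of the 41710 genes in each table. Of the 36, 14 encode the broadly expressed subunits of the 20S core, 17 encode the 19S cap, 3 (Psmd5, Psmd9 and Psmd10) encode chaperones that help assemble the cap, and Psma8 and Psmb11 are core subunits restricted to testis and thymic epithelium.

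RNA-seq was performed on mouse embryonic fibroblasts (MEFs) in 4 genotypes, either as primary cells or after immortalization with lentiviral SV40 T-antigen, with 3 libraries in each of the 8 groups. WT cells had intact Myc and Mlx loci. In MycKO, MlxKO and DKO (both genes) cells, floxed alleles were excised by a Cre-estrogen receptor fusion expressed from the ubiquitously active ROSA26 locus after exposure to 500 nM 4-hydroxytamoxifen (4OHT), primary cells being profiled without T-antigen. Myc binds DNA with Max and drives growth genes, whereas Mlx is the partner through which the Mondo proteins and some Mxd repressors act on related sites. Each line came from pooled embryos, and a single WT line served as the main control. The immortalized WT cells were kept without 4OHT. Primary cells were exposed to 4OHT or to its ethanol vehicle, and the WT cells kept their loci intact. In both sets, exposure to 4OHT and genotype therefore cannot be told apart. WT cells were floxed cells left unexcised. Each floxed line came from its own embryo pool and was immortalized on its own, so differences between lines cannot be fully told apart from genotype. The paper reports that most immortalized MycKO cells had become tetraploid or pseudo-tetraploid, and the part of this in the results was not tested. Libraries are called a, b and c within a group, and the study describes those of the primary cells as biological replicates. No source used here states whether the libraries came from separate cultures, so the p-values measure only the spread between them, which may be in part technical.

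The 26S proteasome degrades proteins tagged with ubiquitin. Its 20S core is a barrel of stacked alpha and beta rings (Psma and Psmb genes), and the proteolytic sites lie on the beta ring, with caspase-like activity in Psmb6, trypsin-like activity in Psmb7 and chymotrypsin-like activity in Psmb5. The 19S cap has a base of AAA ATPases (Psmc genes) that unfold substrates, with ubiquitin receptors and scaffold subunits (Psmd1, Psmd2, Psmd4), and a lid (other Psmd genes) around the deubiquitinase Psmd14. In mammalian cells short of proteasome activity the transcription factor Nfe2l1 raises the subunit genes together.

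The libraries held between 15986856 and 20966163 reads on genes, which places 3 reads at 0.145 to 0.196 CPM, the read count scaled to sequencing depth by the authors. All 10 fibroblast markers reached 1 CPM in at least 1 library of each group. In immortalized MycKO cells Lum lay at only 0.102 to 1.01 CPM. The sum of 10 macrophage markers in the primary cells was 309 to 607 CPM in WT, 337 to 416 in MlxKO, 53.0 to 79.5 in MycKO and 105 to 243 in DKO. In the immortalized cells this sum was at most 5.80. Summed endothelial markers stayed at or below 19.1 CPM and epithelial markers at or below 19.3 CPM in all libraries. Skeletal muscle markers reached 138 CPM in primary cells and 231 CPM in immortalized MycKO cells, with Myod1 and Myog under 1 CPM in every library. Their part in the results was not tested. In immortalized cells the WT c library stood apart, with Pearson r of 0.950 and 0.943 to the WT a and b libraries over 12880 genes, whereas every other pair within a group lay between 0.983 and 0.996. Results on immortalized cells are therefore also given without it and without MycKO a, which is described below. Counts of members in that setting, and under every other alternative to the main test, are given without the share of all genes called there. They describe only how far the main counts depend on the libraries and settings used.

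The targeted genes followed the labels. Primary Myc was read at 100.1, 89.8 and 91.8 CPM in WT, 25.8, 26.8 and 26.8 in MycKO and 21.6, 22.9 and 19.9 in DKO. Primary Mlx was read at 26.0, 20.5 and 24.5 CPM in WT and fell by 43.1%, to at most 13.97 CPM, in MlxKO, which left a residual signal. In immortalized cells Myc was read at 48.1 and 39.9 CPM in WT a and b and at 177.5 CPM in WT c, against 10.0 to 17.2 CPM in MycKO and 4.25 to 8.02 in DKO, and Mlx was read at 20.5 to 25.1 CPM in WT and 12.1 to 17.03 in MlxKO. Reads were summed over whole genes, so signal left from the exons that were not deleted is counted too.

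The question of the first comparison was whether the proteasome genes differed between primary MycKO and WT MEFs. Most of them were lower in MycKO by a modest amount. Of the 34 members that passed the expression filter, 20 were lower and 0 were higher (limma, adjusted p under 0.05 over all 13101 genes tested). For comparison, 42.3% of all genes tested were called, 21.9% lower and 20.4% higher. The fall was found for 10 of 14 core genes and 9 of 17 cap genes, and for Psmd5 among the chaperones. The median log2 fold change was −0.25 over the core and −0.16 over the cap, against 0.00 over all genes tested, and 33 of the 34 values were below 0. The exception, the chaperone Psmd9, had a log2 fold change of 0.11 that did not pass the test. No member changed by as much as 1 on the log2 scale. After correcting for GC content and for the length of the transcript, 13 members passed, all lower, and leaving out WT a also gave 13. Because these are bulk libraries, fewer cells of a type and less RNA per cell cannot be told apart. The paper describes primary MycKO and DKO cells, but not MlxKO cells, as growth-arrested. The part of growth arrest in these values was not tested.

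**Figure D1:**
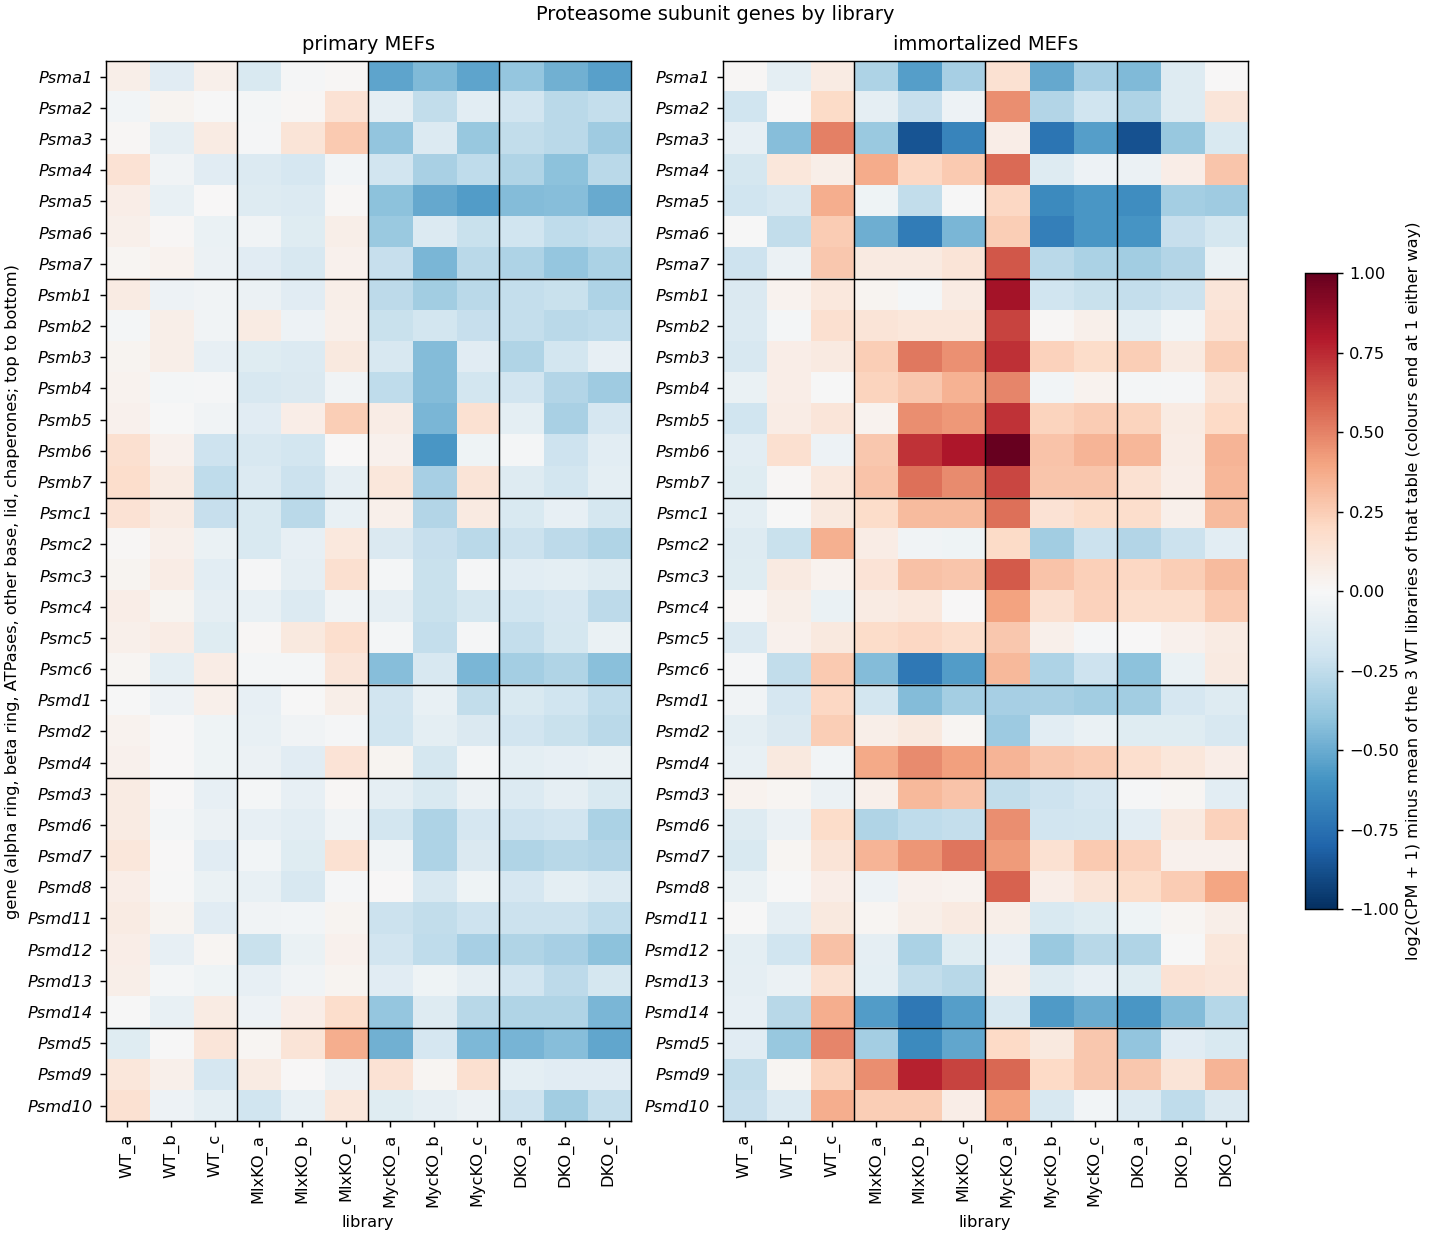
Heat map of the 34 tested members in the 12 libraries of each table; the colour is log2(CPM + 1) minus the mean of the 3 WT libraries of the same table, and rows are ordered by role. Primary MycKO and DKO columns are mostly blue, with 20 and 23 of the 34 genes lower than WT by the test, while immortalized MycKO a is red for most core genes.

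The alpha ring, which forms the gate of the barrel, had 6 of its 7 genes lower. Psma1 was read at 114, 101 and 113 CPM in the 3 WT libraries, 98.3, 109 and 110 in MlxKO, 75.8, 80.4 and 75.8 in MycKO and 83.5, 78.2 and 74.6 in DKO. All 6 libraries without Myc lay below all 6 with it. Its log2 fold change was −0.50 ± 0.07 (SE, n = 3 libraries against 3) in MycKO, with an adjusted p of 2.82e-05 by limma. Psma5 followed closely at −0.49 ± 0.07 (adjusted p = 2.54e-05), with 71.8 to 79.2 CPM in WT and 51.0 to 56.7 in MycKO. Since 47.9% of the 50-base stretches of its transcript also occur in other genes, mainly a pseudogene, its reads are less certainly its own. Psma2 had a log2 fold change of −0.15 that did not pass the test.

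In the beta ring the test called structural members and no catalytic ones. The 4 structural or assembly-guiding subunits Psmb1, Psmb2, Psmb3 and Psmb4 were lower, with log2 fold changes of −0.29, −0.21, −0.24 and −0.29. Psmb1 was read at 150.5, 137 and 139 CPM in WT and 118, 111 and 118 in MycKO, with no overlap (adjusted p = 0.00126). The 3 catalytic subunits did not pass the test: Psmb5 had a log2 fold change of −0.08 ± 0.13, Psmb6 of −0.19 ± 0.13 and Psmb7 of −0.03 ± 0.11. Their MycKO libraries were uneven. Psmb6 was read at 67.4, 43.4 and 63.7 CPM in MycKO a, b and c against 73.5, 67.5 and 56.6 in WT, and Psmb7 at 99.6, 72.8 and 100.4 CPM against 104, 97.3 and 76.8. In both genes the MycKO b library was the lowest of the 12, as it was for 12 of the 34 members. The catalytic Psmb6 had nearly the value of the structural Psmb2, with an SE of 0.13 against 0.06. The difference between catalytic and structural members was not tested. Psmb3 and Psmb5 share 60.4% and 48.7% of their 50-base stretches with other genes and are uncertain for that reason.

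Within the cap, the 26S ATPase Psmc6 changed most. It was read at 140, 129 and 145.5 CPM in WT, 103, 123 and 100.03 in MycKO and 109, 112 and 103 in DKO, a log2 fold change of −0.35 ± 0.08 in MycKO (adjusted p = 0.00196). Of the other ATPases Psmc2 and Psmc4 were lower, and Psmc1, Psmc3 and Psmc5 ranged from −0.05 to −0.09 without passing. The deubiquitinase Psmd14 was read at 97.2, 92.1 and 103 CPM in WT and 74.2, 88.8 and 80.1 in MycKO (log2 fold change −0.26 ± 0.08, adjusted p = 0.0139). The scaffold Psmd1 moved by −0.17 and Psmd2 by −0.15, both lower in every MycKO library than in any WT library. The ubiquitin receptor Psmd4, at −0.06, did not pass. Among the assembly chaperones Psmd5 was read at 66.8, 72.6 and 79.2 CPM in WT and 51.7, 64.6 and 52.9 in MycKO (−0.37 ± 0.10, adjusted p = 0.0058).

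The mean level of core genes fell further than that of cap genes, as a description over the 31 genes. The core mean on the log2(CPM + 1) scale was 6.62 to 6.73 in WT and 6.31 to 6.47 in MycKO, and the cap mean was 6.97 to 7.08 and 6.83 to 6.89. Core minus cap was −0.35 in each WT library and lay between −0.37 and −0.35 in MlxKO, −0.51 and −0.40 in MycKO and −0.45 and −0.37 in DKO. All MycKO and DKO libraries were thus below all WT libraries in this difference, but MycKO b alone reached −0.51.

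**Figure D2:**
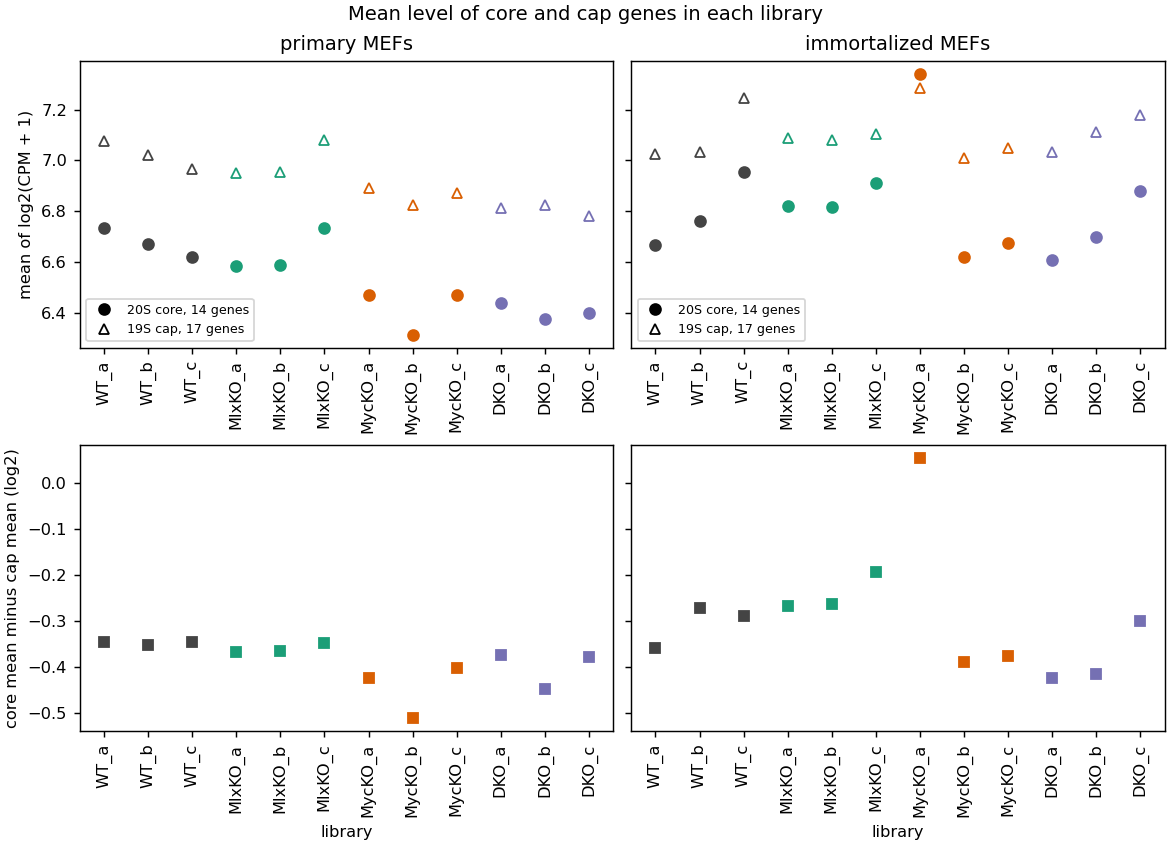
Top, the mean of log2(CPM + 1) over 14 core genes (filled circles) and 17 cap genes (open triangles) in each library; bottom, core mean minus cap mean, with colours marking the 4 genotypes. In primary cells the core mean drops from 6.62 or more in WT to 6.47 or less in MycKO and DKO, and immortalized MycKO a is the only library with a core mean above its cap mean, by 0.06.

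Loss of Mlx alone gave no member past the test in primary cells. The count was 0 of 34 by limma, 0 at an unadjusted p under 0.05, and 0 by edgeR and by DESeq2, where 8.88% of all genes tested were called by limma. Log2 fold changes ranged from −0.16 (Psmc1) to 0.17 (Psmd5), with a median of −0.05 over the core and −0.03 over the cap and a median SE of 0.07. Differences near that SE were not detectable with 3 libraries a group.

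Most members were likewise lower in cells lacking both genes. In DKO against the same WT libraries 23 of 34 members were lower and 0 higher, where 49.5% of all genes were called, 25.5% lower and 24.0% higher. All 7 alpha ring genes, 3 of 7 beta ring genes, 3 of 6 ATPases, 2 of 3 other base subunits, 6 of 8 lid subunits and 2 of 3 chaperones passed. The core median was −0.25 and the cap median −0.21. Psma1 changed by −0.47 ± 0.07, Psmd5 by −0.47 ± 0.10, Psmc6 by −0.35 ± 0.08, Psmd14 by −0.35 ± 0.08, Psmb4 by −0.28 ± 0.07 and Psmd2 by −0.23 ± 0.05. For Psmd2, a scaffold of the base, the values were 343.5, 335 and 325 CPM in WT and 293, 287 and 278 in DKO. The catalytic genes again did not pass, with −0.20 for Psmb5, −0.11 for Psmb6 and −0.14 for Psmb7. Neither did the structural Psmb3 (−0.19).

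Cells lacking both genes were compared with cells lacking Myc alone by setting DKO against MycKO. These are separate lines, and Mlx was not deleted from the MycKO cells. The count was 0 of 34 by limma, edgeR and DESeq2, and 2 at an unadjusted p under 0.05, against 21.5% of all genes called, and 3 passed as lower without MycKO b. The core median was 0.01 and the cap median −0.05. In the comparison of DKO with MlxKO, 21 members were lower and 0 higher, 9 of the core and 11 of the cap. Of all genes, 49.1% were called there, 25.9% lower and 23.3% higher. Without MlxKO c the count was 13. Here Psmd5 had the widest difference, from 73.8, 79.8 and 93.6 CPM in MlxKO to 52.3, 54.0 and 50.5 in DKO (−0.64 ± 0.10, adjusted p = 4.64e-05). Psmb2 changed by −0.28 and Psmd14 by −0.42 in this comparison. The Myc-by-Mlx interaction, which asks whether the effect of Mlx loss differs between cells with and without Myc, gave 0 members by all 3 tools and 0 at an unadjusted p under 0.05, where 13.5% of all genes were called. Without MycKO b 1 passed.

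**Figure D3:**
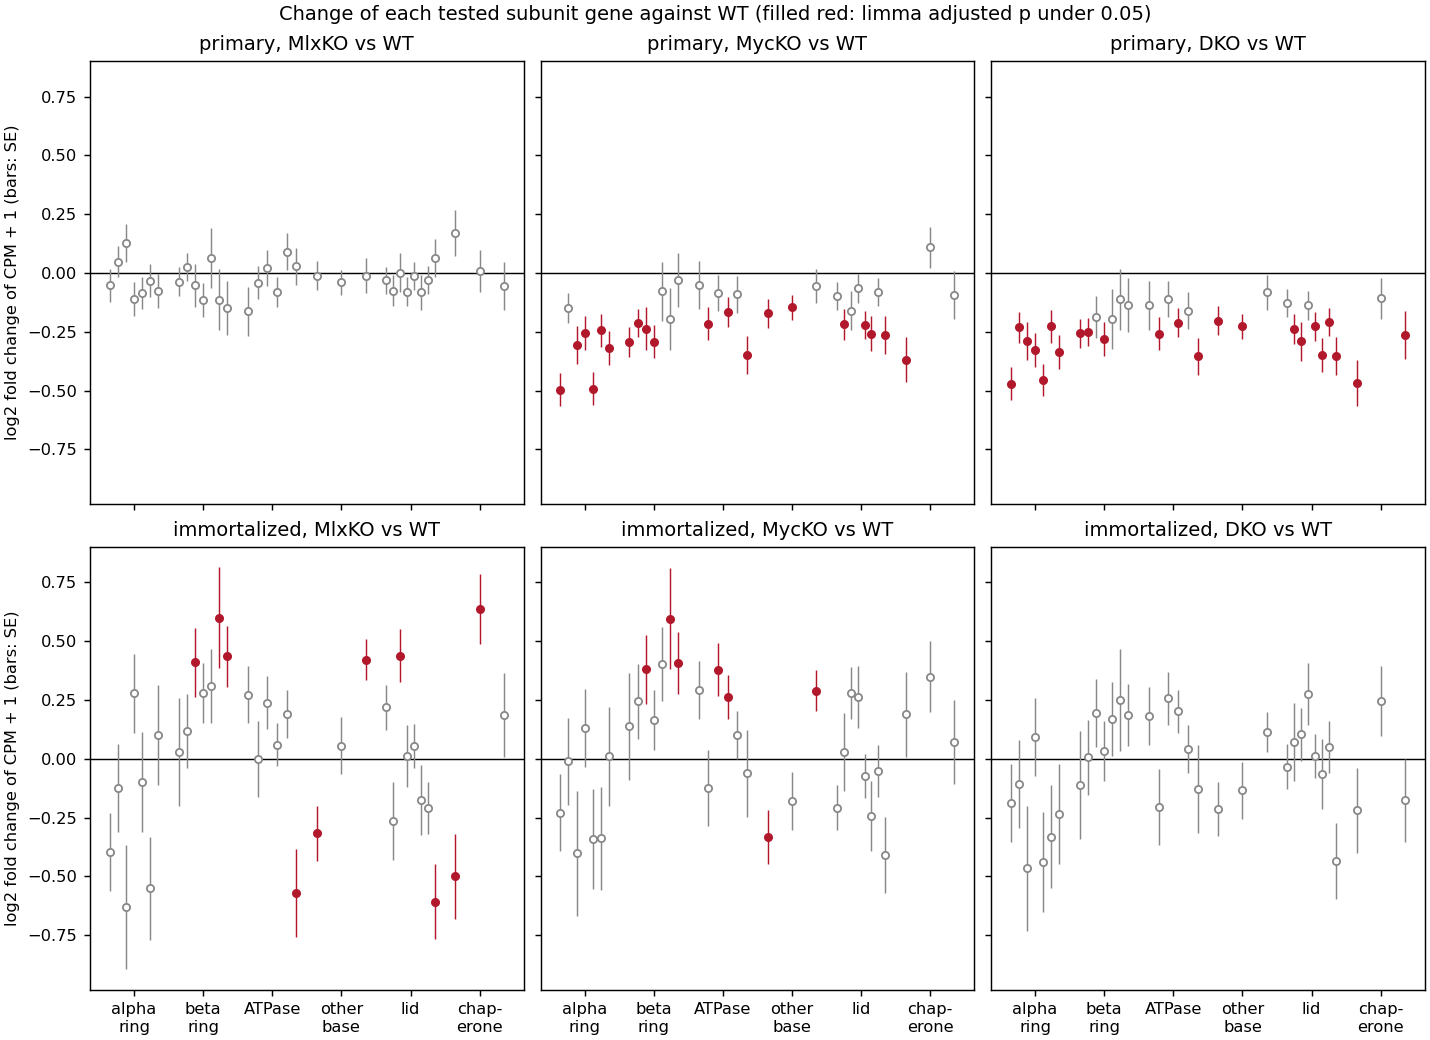
Log2 fold change of each of the 34 tested members against WT in 3 genotypes, primary cells on top and immortalized cells below, with SE bars and grouped by role; filled red points passed limma at an adjusted p under 0.05. The counts of filled points are 0, 20 and 23 in primary MlxKO, MycKO and DKO, all below 0, and 10, 7 and 0 in the immortalized cells, on both sides of 0.

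Psma8, which replaces Psma7 in germ cells, stayed at or below 0.718 CPM and Psmb11, the thymus-specific subunit, at or below 0.408 CPM in all 24 libraries. Neither passed the filter of 1 CPM in 3 of 12 libraries. Both lie within a few multiples of the 3-read level, and no fold was computed.

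Because many members moved in the same direction, the bases before their starts were examined. The 36 genes lie on 16 chromosomes, with 6 on chromosome 11 and 5 on chromosome 2, so most of them are not neighbours. The window of 250 bases before and 50 after the start of each gene's canonical transcript (GENCODE vM39 on GRCm39) was searched on both strands for CACGTG, the canonical E-box that Myc and Mlx dimers bind, TGACNNNGC, the core of the antioxidant response element to which Nfe2l1 and Nfe2l2 bind, and CCAAT. Matches of different motifs may overlap. The E-box letters were found for 4 of 36 members (Psma4, Psmb2, Psmb3 and Psmd9), or 11.1%, against 7.81% of all 21770 protein-coding promoters and 9.97% of the 12624 belonging to genes tested in primary cells. Of these members 3 are among the 14 core genes and 0 among the 17 cap genes. TGACNNNGC was found for 7 members (19.4% against 12.5% and 13.6%) and CCAAT for 16 (44.4% against 39.9% and 39.7%). The 120 bases before the start are shown for the 3 members with the widest falls in primary MycKO cells (Psma1, Psma5, Psmd5), for those with an E-box in this stretch (Psma4, Psmd9) and for the 3 catalytic subunits, in lower case with motif matches on either strand in capitals.
Psma1, chr7:113875373-113875492, minus strand: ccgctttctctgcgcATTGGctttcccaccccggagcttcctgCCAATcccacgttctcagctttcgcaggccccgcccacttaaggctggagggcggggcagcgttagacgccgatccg
Psma5, chr3:108163966-108164085, plus strand: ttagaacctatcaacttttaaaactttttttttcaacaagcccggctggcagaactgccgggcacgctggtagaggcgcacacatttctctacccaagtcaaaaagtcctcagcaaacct
Psmd5, chr2:34760975-34761094, minus strand: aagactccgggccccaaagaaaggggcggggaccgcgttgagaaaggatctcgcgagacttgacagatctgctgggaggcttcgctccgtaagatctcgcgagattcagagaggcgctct
Psma4, chr9:54857947-54858066, plus strand: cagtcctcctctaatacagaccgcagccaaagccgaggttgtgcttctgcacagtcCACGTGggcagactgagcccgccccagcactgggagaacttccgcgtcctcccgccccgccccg
Psmd9, chr5:123366133-123366252, plus strand: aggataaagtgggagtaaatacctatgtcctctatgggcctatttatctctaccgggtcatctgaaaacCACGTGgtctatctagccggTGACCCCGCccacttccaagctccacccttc
Psmb5, chr14:54855482-54855601, minus strand: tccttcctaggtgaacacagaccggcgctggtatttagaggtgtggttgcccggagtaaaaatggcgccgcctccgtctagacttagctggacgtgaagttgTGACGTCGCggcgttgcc
Psmb6, chr11:70416063-70416182, plus strand: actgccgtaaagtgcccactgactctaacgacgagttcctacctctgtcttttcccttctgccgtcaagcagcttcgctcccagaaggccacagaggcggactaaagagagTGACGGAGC
Psmb7, chr2:38534100-38534219, minus strand: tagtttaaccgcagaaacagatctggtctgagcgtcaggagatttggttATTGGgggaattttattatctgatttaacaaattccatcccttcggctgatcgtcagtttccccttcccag

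None of the 3 members with the widest falls has an E-box in the windows shown. Psmb5 and Psmb6, which did not pass the test, each carry TGACNNNGC just before the start. Of all members with an E-box in the searched window, Psma4 (−0.25), Psmb2 (−0.21) and Psmb3 (−0.24) were lower in primary MycKO cells. Psmd9 (0.11) was not called. Of those with TGACNNNGC, Psmb2, Psmc6 and Psmd12 were lower, and Psmb5, Psmb6, Psmd7 and Psmd9 were not called. A match of letters is a description and no evidence of binding.

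Other proteasome genes were followed from a list of 39, of which 38 were tested. In primary MycKO cells 12 of the 38 were lower and 2 higher, so that 14 passed, where 42.3% of all genes were called, 21.9% lower and 20.4% higher. The genes named next are examples and do not describe the list as a whole. Psmg1 and Psmg2, a chaperone pair for the alpha ring, changed by −0.38 and −0.41, the cap-bound deubiquitinases Usp14 and Uchl5 by −0.33 and −0.55, and the activator subunits Psme1 and Psme3 by −0.28 and −0.35. The core maturation factor Pomp (−0.10) and the ubiquitin receptor Adrm1 (−0.05) did not pass. Psme2 had a value of −0.16, with overlap between the groups. Rps27a, which encodes ubiquitin fused to a ribosomal protein, changed by −0.64, while the polyubiquitin gene Ubb had a value of 0.18 that did not pass.

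Nfe2l1 went the other way from the subunits. It was read at 299, 308 and 278 CPM in WT, 410, 313 and 409 in MycKO and 404, 398 and 429 in DKO, each of these 6 libraries being above each WT library. The log2 fold change was 0.35 ± 0.08 in MycKO (adjusted p = 0.00356) and 0.48 ± 0.08 in DKO (adjusted p = 0.000202), against 0.01 in MlxKO. In DKO cells 15 of the 38 genes were lower, led by Rps27a at −0.82 ± 0.08, and 5 were higher, 20 in all, where 49.5% of all genes were called. In MlxKO cells 0 passed, against 8.88% of all genes.

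The immunoproteasome subunits replace the 3 catalytic ones in immune cells and after interferon. In primary cells Psmb8 was read at 17.8, 16.3 and 15.8 CPM in WT, 11.6, 14.5 and 14.5 in MlxKO, 7.04, 5.63 and 7.67 in MycKO and 8.94, 9.14 and 10.7 in DKO. The change of −1.19 ± 0.12 in MycKO (adjusted p = 1.24e-06) was the largest of the listed genes. Psmb9 changed by −1.01 from 1.52 to 2.82 CPM in WT, and Psmb10 had a value of −0.25 that did not pass. The macrophage marker sum was also lower there, at 79.5 CPM or less in MycKO against 309 CPM or more in WT, and its part in these values was not tested.

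The immortalized cells showed no common fall of the subunit genes. In MycKO against WT 7 of 34 members passed, where 48.0% of all 12880 genes tested did (23.5% lower and 24.4% higher), and 6 of them were higher: Psmb3, Psmb6, Psmb7, Psmc3, Psmc4 and Psmd4. The scaffold Psmd1 was lower (−0.33 ± 0.12, adjusted p = 0.0318), with 200 to 260.5 CPM in WT and 177 to 180.0 CPM in MycKO. The median was 0.13 over the core and −0.05 over the cap. Within the core it was −0.23 over the alpha ring and 0.38 over the beta ring, a difference that was not tested. Psmb6 was read at 57.7, 69.7 and 60.01 CPM in WT and 141, 76.0 and 79.0 in MycKO (0.60 ± 0.22, adjusted p = 0.0373), and Psmb7 at 81.5, 89.5 and 95.6 CPM against 142, 108 and 108 (0.41 ± 0.13, adjusted p = 0.0218). Psmb5 narrowly missed (0.40, adjusted p = 0.0508). The ATPase Psmc3 was read at 137.5, 159 and 153 CPM in WT and 229, 182 and 177 in MycKO (0.38 ± 0.11, adjusted p = 0.0159).

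In each of these higher genes the MycKO a library was the highest of its group. It had the highest value of all 12 libraries for 19 members. Its core mean was 7.34 against 6.62 and 6.67 in MycKO b and c, and its median difference to the mean of MycKO b and c was 0.68 over the core and 0.24 over the cap, against −0.05 over all genes tested. Without MycKO a, 6 members passed, 4 of them lower and 2 higher, and without both MycKO a and WT c 10 passed, 4 lower (Psma1, Psma5, Psma6 and Psmd14) and 6 higher (Psmc3, Psmd4, Psmd5, Psmd7, Psmd9 and Psmb7), with the core median at −0.10. Without WT a 0 passed. The direction of the core as a whole in immortalized MycKO cells thus depended on single libraries. Psmb7 (0.33), Psmc3 (0.28) and Psmd4 (0.25) passed as higher when MycKO a and WT c were both left out, but Psmb7 did not pass without MycKO a alone (0.28, adjusted p = 0.0758).

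In immortalized MlxKO against WT 10 members passed, where 38.9% of all genes did, 19.9% lower and 19.1% higher. Higher were Psmb3, Psmb6, Psmb7, Psmd4, Psmd7 and the chaperone Psmd9, and lower were Psmc6, Psmd1, Psmd5 and Psmd14. Psmd4 was read at 77.1, 86.7 and 79.6 CPM in WT and 106, 113 and 108 in MlxKO (0.42 ± 0.09, adjusted p = 0.00328). Psmd9 rose from 19.8, 24.0 and 27.7 CPM to 33.0, 40.9 and 38.3 (0.64 ± 0.15, adjusted p = 0.00629) and Psmb6 from the WT values above to 75.4, 103 and 110.0 (0.60 ± 0.22, adjusted p = 0.043). In these 3 genes no MlxKO library overlapped with WT.

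The members that were lower in immortalized MlxKO cells had WT c as their highest WT value. Psmd14 was read at 141.5, 124 and 194 CPM in WT and 102, 91.4 and 102 in MlxKO (−0.61 ± 0.16, adjusted p = 0.0118), and Psmc6 at 189, 161 and 229 CPM against 141, 116 and 130 (−0.57 ± 0.19, adjusted p = 0.0298). Under the correction for GC content and length Psmd14 no longer passed (−0.14, adjusted p = 0.361) and the Psmc6 value turned to 0.048 (adjusted p = 0.755). Psmc6 also no longer passed with scaling to library totals, without a filter on low values, or without any of WT a, WT c, MlxKO b and MlxKO c in turn. Psmd5 was read at 87.5, 72.8 and 133.5 CPM in WT and 74.7, 60.6 and 65.7 in MlxKO, with overlap. With WT c and MycKO a left out of the fit 17 members passed, 13 higher and 4 lower (Psmc6, Psmd14, Psma1 and Psma6). Without the share of all genes called in that setting, this rise cannot be read as particular to the members. Scaling to library totals moved the median gene by 0.17 in this comparison and gave 13 members, 12 higher and 1 lower, so the balance of directions depends on the scaling. The alpha ring had a median of −0.12 and the beta ring of 0.31.

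No member passed the main test after loss of both genes in immortalized cells. In DKO against WT 0 of 34 passed by limma and by edgeR and 1 (lower) by DESeq2, with 3 at an unadjusted p under 0.05, where 18.9% of all genes were called. The core median was −0.05 and the cap median 0.04, and values ranged from −0.47 to 0.28. The alpha ring had a median of −0.24 and the beta ring of 0.17. DKO against MycKO gave 0 by all 3 tools and 1 at an unadjusted p under 0.05, against 29.4% of all genes. In DKO against MlxKO, Psmd4 (−0.31 ± 0.09, adjusted p = 0.0189) and Psmd7 (−0.33 ± 0.11, adjusted p = 0.0398) were lower, where 30.1% of all genes were called and 13.9% were lower. Psmd7, a lid subunit, was read at 106, 114.5 and 122 CPM in MlxKO and 98.4, 86.2 and 86.4 in DKO. Without WT c and MycKO a 17 members passed in this last comparison, 12 lower and 5 higher (Psmc6, Psmd5, Psmd6, Psmd8 and Psmd13), and 0 passed without any of DKO b, DKO c, MlxKO b and MlxKO c in turn.

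The interaction was called for 7 members in immortalized cells, against 47.4% of all genes tested, 23.8% negative and 23.7% positive. It was negative for Psmb6 (−0.95 ± 0.30), Psmd9 (−0.74 ± 0.21), Psmb7 (−0.66 ± 0.18), Psmd7 (−0.61 ± 0.16), Psmd4 (−0.60 ± 0.12) and Psmb3 (−0.60 ± 0.21), with adjusted p from 0.00206 to 0.032. Their value in DKO was below the sum of the changes in MycKO and MlxKO. For Psmd4 the changes against the shared WT libraries were 0.29 (MycKO), 0.42 (MlxKO) and 0.11 (DKO). It was positive for Psmd1 (0.44 ± 0.16, adjusted p = 0.0438). The 6 negative members passed as well without WT c and MycKO a, when 8 were negative and 5 positive, whereas Psmd1 no longer passed (0.33, adjusted p = 0.0534).

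The immunoproteasome subunit Psmb8, by contrast, was higher in all 3 immortalized knockouts than in WT. It was read at 15.7, 18.1 and 3.59 CPM in WT, 83.9, 93.7 and 90.1 in MlxKO, 81.7, 56.0 and 57.0 in MycKO and 34.7, 32.4 and 37.4 in DKO, with no overlap to WT. Its log2 fold change reached 2.99 ± 0.40 in MlxKO, against 2.51 ± 0.40 in MycKO and 1.65 ± 0.40 in DKO (adjusted p of 0.000358, 0.000347 and 0.0144), and 2.33, 1.69 and 1.00 without WT c and MycKO a, all still past the test. Psmb9 was read at 3.98, 4.99 and 0.243 CPM in WT and 20.7, 23.8 and 21.1 in MlxKO (2.77 ± 0.43), and Psmb10 at 15.99, 20.5 and 6.63 CPM in WT and 44.9, 54.2 and 54.7 in MlxKO (1.89 ± 0.30). In MycKO and DKO, Psmb10 did not pass (0.59 and 0.56). Without WT c and MycKO a, the MlxKO values were 2.06 for Psmb9 and 1.45 for Psmb10. In that setting Psmb9 was at 0.37 in MycKO (limma adjusted p = 0.0643) and 0.42 in DKO (adjusted p = 0.0467). The 3 interaction values, −3.85 for Psmb8, −2.78 for Psmb9 and −1.93 for Psmb10, all passed. They were smaller without WT c and MycKO a (−3.02, −2.01 and −1.36) and still passed. Macrophage markers were at or below 5.80 CPM in sum in these cells.

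**Figure D4:**
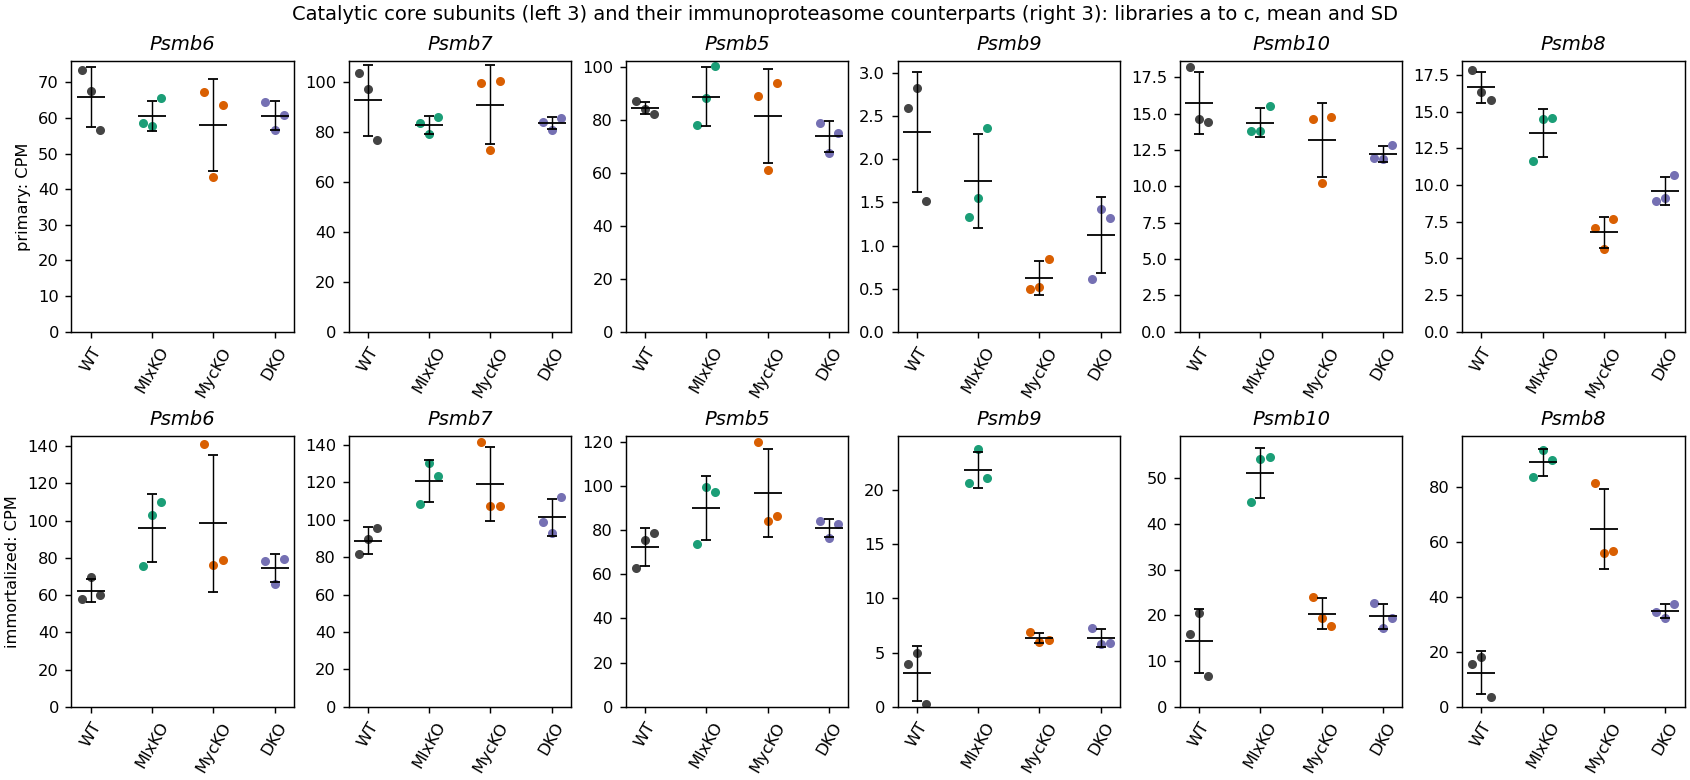
CPM of the catalytic core subunits Psmb6, Psmb7 and Psmb5 and of their immunoproteasome counterparts Psmb9, Psmb10 and Psmb8 in each library, primary cells on top, with the mean and SD of 3 libraries; each panel starts at 0 on its own scale. Immortalized MlxKO libraries reach 83.9 to 93.7 CPM for Psmb8 against 3.59 to 18.1 in WT, and WT c is the lowest WT library in all 3 immunoproteasome panels of the immortalized cells.

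Of the other listed genes in immortalized cells, 12 were lower and 8 higher in MycKO, 6 lower and 9 higher in MlxKO and 6 lower and 1 higher in DKO. These counts sum to 20, 15 and 7 of 38 and lie near the shares of all genes called in the same comparisons (48.0%, 38.9% and 18.9%). Ecpas, a scaffold that tethers proteasomes, fell in all 3 knockouts (MycKO −0.78, MlxKO −0.67, DKO −0.55), as did the activator Psme3 (−0.39, −0.36 and −0.40). Psme1, a subunit of the interferon-inducible activator, changed by 0.63 in MycKO, with overlap, and by 0.83 in MlxKO, and it did not pass in MycKO without WT c and MycKO a (0.14, adjusted p = 0.274). Adrm1 changed by 0.47 and 0.53, but 76.7% of its 50-base stretches occur in other genes. Psme2 had values of 0.82, 0.77 and 0.73 in MycKO, MlxKO and DKO. Without WT c and MycKO a these were 0.17, 0.32 and 0.28, and 59.2% of its 50-base stretches occur in other genes. Nfe2l1 had values of 0.24, 0.07 and 0.24 in MycKO, MlxKO and DKO that did not pass.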

How the data were processed

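Poly-A RNA was sequenced from 24 libraries, and the 12 primary and 12 immortalized libraries were deposited as separate tables. The authors aligned reads with CLC Genomics Workbench and, per the labels, used GRCm39. The deposited signal is CPM after a scaling between libraries whose name is not given in the sources used here, with column sums of 915691 to 1077210. Nonzero values were whole multiples of the value of 1 read (within 0.05 of a step) in 100% of cases, so reads were recovered for count tests. Counting used summed gene reads, and depth limits only the precision of counting.

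For each table, log2(CPM + 1) was fitted with limma (version 3.58.1, R 4.3.3, intensity trend in the variance prior) with 4 groups in 1 fit, for genes reaching 1 CPM in 3 or more of the 12 libraries, and p-values were adjusted by Benjamini-Hochberg over all genes tested. Fold changes are on this scale, which understates those of low genes. The interaction is (DKO − MycKO) − (MlxKO − WT). The 2 tables were scaled apart and were never tested against each other, and comparisons within a table share the WT libraries. edgeR (4.0.16) and DESeq2 (1.42.0) on recovered reads, other scalings, filters, pseudocounts and left-out libraries were alternatives. On data simulated for primary MycKO against WT (12930 genes), limma recovered 96.0% of 199 genes changed by 1 on the log2 scale. No member changed by that much, so the simulation does not tell how often changes of the size seen here would be found. Figures were drawn with matplotlib 3.10.9.

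The members and lists were chosen with earlier results of these data known. The named members are the catalytic and tissue-restricted subunits and, in each comparison and role, the called member with the widest change whose libraries did not overlap, plus those called against the majority; Psma5, Psmb2, Psmb3, Psma4 and Psmc3 in some places, and the splits by library, were chosen after values were seen. Of the pathway list, Psmg1, Psmg2, Usp14, Uchl5, Ubb and Ecpas were named outside the rule set for naming. Paaf1 was not analysed here, and some genes of the pathway list enter its counts but are not reported by name here. Of 41710 gene IDs, 41181 matched GENCODE vM39. CPM is not corrected for length, so levels were not compared between genes.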

Additional observations from a re-analysis of the deposited data

Results flagged for a closer look

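Results are listed here where the effect of losing a gene differed between genetic backgrounds by the interaction test, or where all libraries moved in opposite directions in the primary and the immortalized cells. In primary cells the interaction was 0.74 on the log2 scale for Psmb8, whose level was lower in MycKO than in DKO. In immortalized cells it was negative for the subunits Psmb3 (−0.60), Psmb6 (−0.95), Psmb7 (−0.66), Psmd4 (−0.60), Psmd7 (−0.61) and Psmd9 (−0.74) and positive for Psmd1 (0.44). For the related genes it was −3.85 for Psmb8, −2.78 for Psmb9, −1.93 for Psmb10, −0.63 for Adrm1 and −1.09 for Psme1. Without WT c and MycKO a, these were −3.02, −2.01, −1.36, −0.62 and −0.60 in the same order.

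Between the tables, the groups did not overlap and moved opposite ways in 4 cases, and these differences between primary and immortalized cells were not tested. The share of all genes that did so was not computed, so the count is no result about the members. Psmb3 in MycKO against WT had a log2 fold change of −0.24 in primary and 0.38 in immortalized cells. Psmb4 in MlxKO had −0.11 and 0.28, Psmc4 in DKO −0.21 and 0.20, and Psmd8 in DKO −0.14 and 0.28. Psmb3 passed limma in both tables and Psmc4 only in the primary cells, whereas Psmb4 in MlxKO and Psmd8 in DKO passed in neither. Without WT c and MycKO a, Psmb3 in immortalized MycKO no longer passed limma (0.25, adjusted p = 0.0837).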

How the results depend on the processing

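Each of the 12 counts of members was recomputed under the alternatives, and 238 of 292 values stayed within 1.5 times the main count. A main count of 0 that stayed at 0 was included among these, although no ratio exists for it. Requiring a log2 change of 1 or more in size left 0 members in every comparison. With a correction for GC content and length, primary MycKO against WT gave 13 members, primary DKO against MycKO 1, immortalized DKO against WT 1, DKO against MycKO 2, DKO against MlxKO 8 and the immortalized interaction 11. Fitting only the groups compared gave 0 members for immortalized MycKO against WT, 1 for DKO against MycKO and 11 for DKO against MlxKO. DESeq2 gave 11 for immortalized MycKO against WT, 1 for DKO against WT and 4 for DKO against MlxKO, and no filter on low values gave 5 for immortalized MlxKO against WT. Library totals gave 9 for immortalized DKO against MlxKO and 11 for the interaction, and moved the median gene by −0.16 and −0.17 there and by −0.11 in primary DKO against MlxKO. The setting chosen after seeing the data, without WT c and MycKO a, gave 17 for immortalized MlxKO against WT, 3 for DKO against WT, 2 for DKO against MycKO, 17 for DKO against MlxKO and 13 for the interaction. The cause of these changes was not tested.

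Leaving out each library in turn gave 13 (without WT a) to 20 members for primary MycKO against WT, 0 to 0 for MlxKO, 20 to 28 for DKO, 0 to 3 for DKO against MycKO, 13 to 23 for DKO against MlxKO and 0 to 1 for the interaction. In immortalized cells the ranges were 0 (without WT a) to 10 (without WT c) for MycKO, 3 (without MlxKO b) to 14 (without MycKO a) for MlxKO (4 without MlxKO c or WT a, 6 without WT c, DKO b or DKO c), 0 to 1 for DKO (1 without MycKO a or WT b), 0 to 1 for DKO against MycKO (1 without WT c), 0 to 7 for DKO against MlxKO (7 without MycKO a or WT c, 4 without DKO a, 1 without MycKO c) and 4 (without DKO b, MlxKO b, MlxKO c or WT a) to 11 (without MycKO a) for the interaction. Of 850 values of single members, 738 kept direction and side of the threshold, 111 no longer passed, and Psmc6 in immortalized MlxKO reversed to 0.048 (adjusted p = 0.755) under the correction for GC content and length. No paired analysis was possible because nothing links the library numbers in the column names to the labels' replicates.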
